A study of Mus musculus with 6 samples.

Results

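The genes described here are 8 cathepsins, Ctsa, Ctsb, Ctsc, Ctsd, Ctsh, Ctsk, Ctsl and Ctsz, and the cysteine protease inhibitor cystatin C, Cst3. They are lysosomal proteases of several classes and an inhibitor of the cysteine proteases among them. All were read from the deposited array values, each from the probe set with the highest mean among those annotated to its symbol alone. All 9 of 9 were found, out of 22180 genes so reduced, and all 9 read above the 33rd percentile of gene levels (2.68 log2 units) on all 6 arrays. RNA came from whole inguinal mammary glands of C57BL/6J mice at 4 weeks of age, from 3 glands per group with 1 array each. Wild-type mice were Mt1-mmp(+/+), and the knockouts were Dermo1Cre/Mt1-mmp(fl/fl). Mt1-mmp is the older name of Mmp14, a membrane-anchored matrix metalloproteinase, and Dermo1, now Twist2, drives Cre in mesenchymal cells, so the floxed gene is targeted in stromal cells. The wild-type mice were littermates. No label places Cre in a mouse without the floxed alleles, so an effect of Cre itself and the loss of Mmp14 cannot be told apart. Sex is not stated. The comparison asks what the loss of stromal Mmp14 does to the gland, here to another class of matrix-degrading enzymes.

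Cathepsins are proteases of the lysosome. They are made as inactive proenzymes, tagged with mannose 6-phosphate, carried to the lysosome and activated by cleavage in its acid interior. Macrophages and osteoclasts hold large amounts of them, and some cathepsins are also secreted and digest collagen, elastin and basement membrane outside the cell. Cystatin C is a small secreted protein that blocks the cysteine cathepsins. In the mammary gland, lysosomal proteases are best known from involution after weaning and from tumour-associated macrophages.

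In the knockout gland, Ctsh fell to 57.2% of its wild-type level, and it was the only member of 9 to pass the test. That is 11.1% of the members, against 12.2% of all genes called in either direction (2717 of 22180, of which 1121 rose and 1596 fell), so the count says nothing particular about the members. By direction, 1 member fell, where 7.2% of all genes did, and 0 rose, where 5.05% did. Ctsc read lower and Ctsk higher by about as much as each other, without passing. The median difference of the 9 members, knockout minus wild type, was -0.05 log2 units, against 0.03 over all genes. A call here is a limma adjusted p under 0.05, adjusted by Benjamini-Hochberg over all 22180 genes. Values are log2 signals, n = 3 arrays per group, ± after a group mean is the SD, and ± after a difference is the SE of the fit. In whole tissue, fewer cells of a type and less RNA per cell cannot be told apart.

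Mmp14 itself fell by 2.25 ± 0.17 log2 units (limma adjusted p = 0.000454), with no overlap between groups, which goes with the labels. Array medians over all 41345 probe sets lay between 3.77 and 3.89. Markers of mammary epithelium were read in both groups. The 18 measured luminal markers averaged 7.24 to 7.42 on the wild-type arrays and 5.16 to 5.40 on the knockout arrays, and 18 of 18 fell. Wild type 1 stood apart in skeletal muscle markers, with a mean over 18 genes of 5.41 against 3.13 to 3.65 on the other arrays, so the members' differences and the counts of calls were also computed without it. Centring used another median, that of each array over the 22180 genes. With every array so centred, the median difference over all genes went from 0.03 to 0.22. Centred values are to be read against that shift. Centring also turned the split of calls from 1121 rises and 1596 falls (41.3% rises) to 3155 rises and 1178 falls (72.8%).

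**Figure D1:**
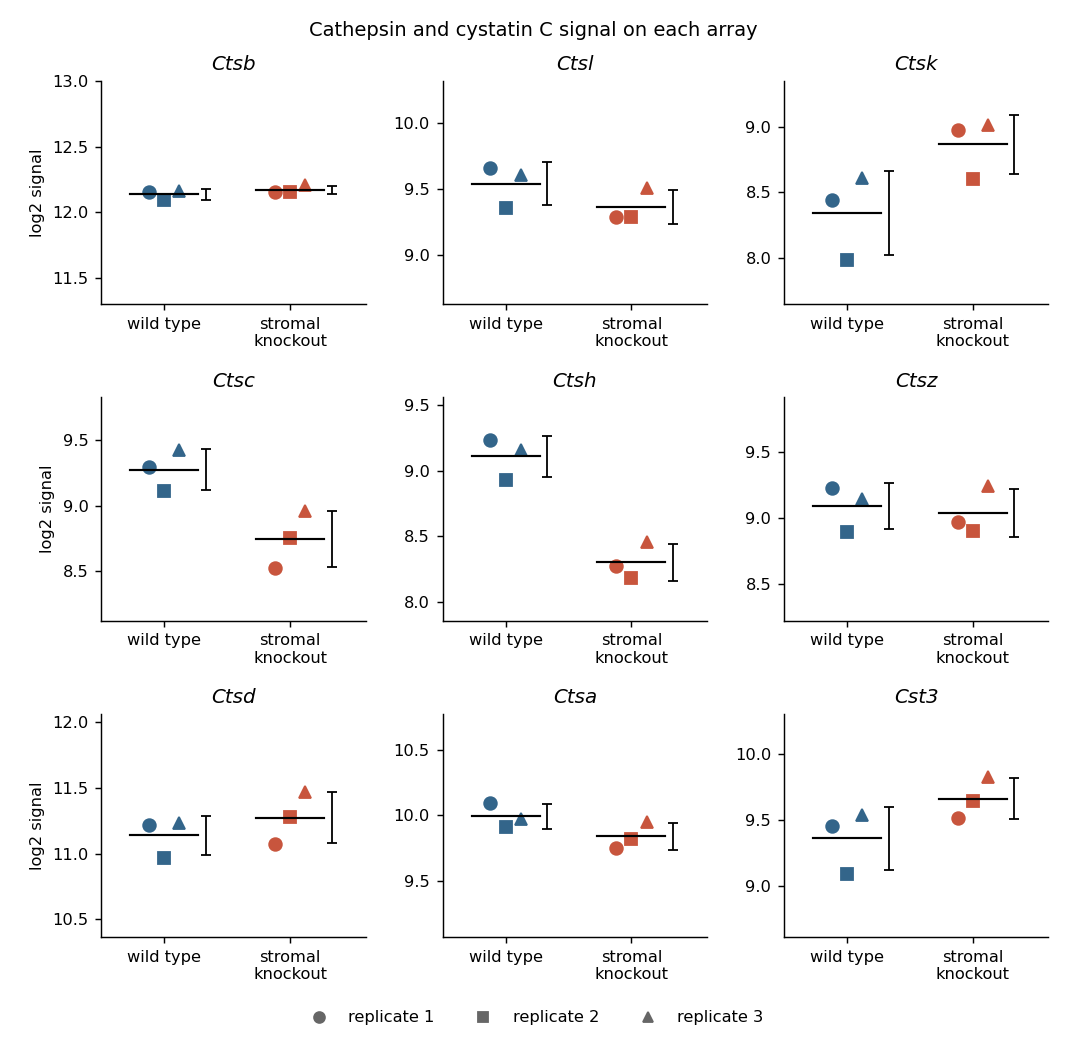
Log2 signal of the 9 members on each of the 6 arrays, with every panel spanning the same number of log2 units. Circles, squares and triangles are replicates 1, 2 and 3, the horizontal line is the group mean and the bar beside it the SD. Ctsh and Ctsc are the members whose groups do not overlap, and replicate 2 is the lowest wild-type point in all 9 panels.

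Cathepsins H, C and Z trim residues from an end of proteins. Ctsh encodes cathepsin H, an aminopeptidase that takes single residues from the amino end of proteins. Ctsh read 9.24, 8.93 and 9.16 in wild type 1, 2 and 3 and 8.27, 8.18 and 8.46 in knockout 1, 2 and 3. The groups did not overlap, and 0.48 log2 units separated the highest knockout from the lowest wild-type array. The mean went from 9.11 ± 0.16 to 8.30 ± 0.14, a difference of -0.81 ± 0.13 (95% interval -1.12 to -0.49, limma adjusted p = 0.00890). An exact permutation test, two-sided, gave p = 0.1, and no smaller value is possible with 3 arrays on each side. The call held in all 15 other settings tried, with adjusted p from 0.000723 to 0.0393, and Ctsh differed by -0.74 without wild type 1.

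Ctsc encodes cathepsin C, or dipeptidyl peptidase I, which removes dipeptides and in this way activates the serine proteases stored in neutrophil, mast cell and cytotoxic lymphocyte granules. Ctsc read 9.29, 9.11 and 9.42 in wild type and 8.53, 8.76 and 8.96 in the knockout. These groups did not overlap either, 0.15 log2 units apart at the nearest. The difference was -0.53 ± 0.15 (95% interval -0.88 to -0.18) and missed the threshold (limma adjusted p = 0.0610). It passed in 6 of the 15 other settings, among them an intensity trend in the variance (0.0157) and the removal of knockout 3 (-0.63, adjusted p = 0.0478). Over these settings the adjusted p ran from 0.0147 to 0.168. Ctsh and Ctsc make 2 of 9 members (22.2%) with separate groups, against 32.7% of all genes. Both had the knockout lower, as had 15.4% of all genes, and 17.2% of all genes were separate with the knockout higher.

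Ctsz encodes cathepsin Z, also called cathepsin X, a carboxypeptidase that takes single residues from the other end. Ctsz read 9.23, 8.90 and 9.15 in wild type and 8.97, 8.90 and 9.24 in the knockout, and the groups overlapped throughout. Its difference of -0.05 ± 0.15 did not pass (limma adjusted p = 0.860). The 95% interval, -0.39 to 0.28, spans knockout levels from 76.3% to 122% of wild type, so a change of that size in either direction is not excluded.

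Cathepsins B, L and K cut inside proteins. Ctsb encodes cathepsin B, an abundant lysosomal endopeptidase that also removes dipeptides from the carboxyl end. Ctsb gave the most even values of the members, 12.16, 12.09 and 12.17 in wild type and 12.15, 12.16 and 12.21 in the knockout. Its difference was 0.04 ± 0.10 (95% interval -0.21 to 0.28, limma adjusted p = 0.870). The array maxima were 13.31 to 13.41. Whether differences are understated at the levels of Ctsb was not tested.

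Ctsl encodes cathepsin L, a general lysosomal endopeptidase. Ctsl read 9.66, 9.36 and 9.60 in wild type and 9.29, 9.28 and 9.51 in the knockout. Knockout 3 lay among the wild-type arrays, while knockout 1 and 2 lay under all of them. The difference of -0.18 ± 0.13 did not pass (95% interval -0.49 to 0.13, limma adjusted p = 0.446).

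Ctsk encodes cathepsin K, the collagen-cleaving protease of osteoclasts, which fibroblasts also make. Ctsk read 8.44, 7.98 and 8.60 in wild type and 8.98, 8.60 and 9.01 in the knockout. The groups met at a single point, where wild type 3 stood 0.0015 log2 units above knockout 2. The knockout mean of 8.86 ± 0.23 was 0.52 ± 0.19 log2 units above the wild-type mean of 8.34 ± 0.32 (95% interval 0.08 to 0.97), or 144% of its level, and this did not pass (limma adjusted p = 0.129). Wild type 2 bears on the size, since without it Ctsk differed by 0.34 (adjusted p = 0.278). With arrays centred on their medians it differed by 0.71 and passed (0.0340). Over the 15 settings the adjusted p ran from 0.0340 to 0.278.

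Ctsk was read beside markers of fibroblasts. Of 19 measured fibroblast markers, 10 fell and 0 rose, and their mean level was 9.91 to 10.19 on the wild-type arrays and 9.27 to 9.48 on the knockout arrays. The surface protein Thy1 fell by 1.64 ± 0.13 and the fibroblast protease Fap fell by 1.08 ± 0.11. The Ctsk values ran the other way. What share fibroblasts have in the Ctsk signal was not tested.

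Cathepsins D and A belong to other protease classes. Ctsd encodes cathepsin D, the main aspartic protease of the lysosome. Ctsd read 11.22, 10.96 and 11.24 in wild type and 11.08, 11.28 and 11.47 in the knockout, with overlap. The difference was 0.14 ± 0.14 (95% interval -0.20 to 0.47, limma adjusted p = 0.612). Ctsa encodes cathepsin A, a serine carboxypeptidase that also protects the lysosomal sialidase and beta-galactosidase. Ctsa read 10.10, 9.91 and 9.97 in wild type and 9.75, 9.82 and 9.95 in the knockout, where knockout 3 reached into the wild-type range. Its difference of -0.15 ± 0.12 did not pass (95% interval -0.43 to 0.12, limma adjusted p = 0.466).

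Cst3 encodes cystatin C, which binds the active cleft of the cysteine cathepsins and does not act on cathepsins D and A. Cst3 read 9.45, 9.09 and 9.54 in wild type and 9.52, 9.64 and 9.83 in the knockout. Only wild type 3 reached above the lowest knockout array, by 0.021 log2 units. The difference was 0.30 ± 0.16 (95% interval -0.06 to 0.66) and did not pass (limma adjusted p = 0.271). Wild type 2 bears on this size too, since without it Cst3 differed by 0.17 (adjusted p = 0.526), and the difference reached 0.39 with wild type 3 left out. A further probe set of Cst3 had a wild-type mean of 5.71 ± 0.15 and a knockout mean of 5.81 ± 0.18, and differed by 0.10 ± 0.15 (limma adjusted p = 0.786 over every probe set). The other 8 members have a single probe set each.

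**Figure D2:**
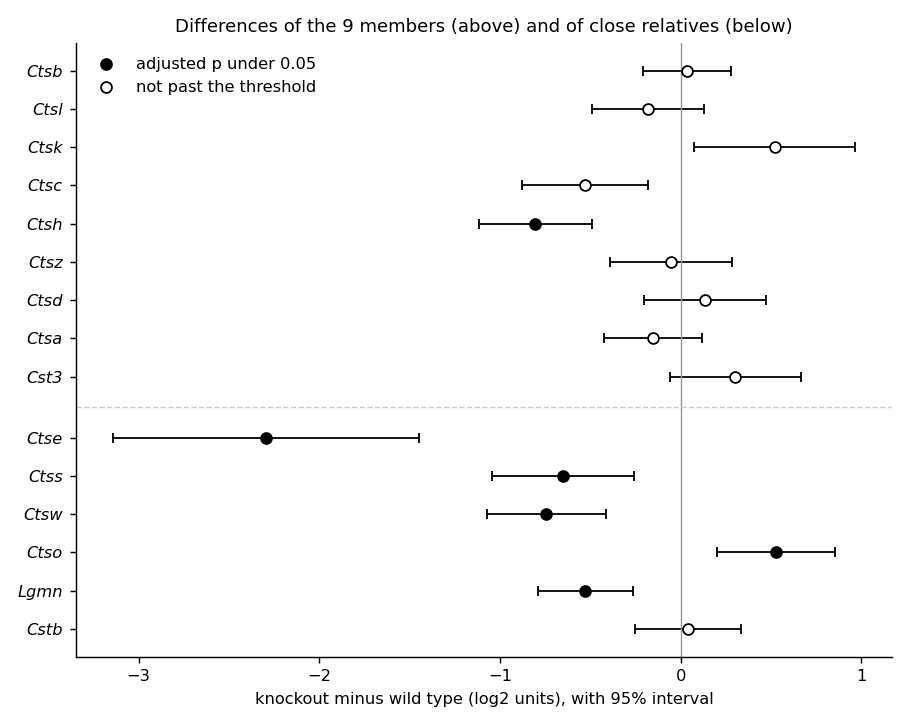
Knockout minus wild type in log2 units with the 95% interval of the limma fit, for the 9 members above the dashed line and for related genes below it. Of the related genes, Ctss, Lgmn and Cstb were always to be shown, and the others are the cathepsins that passed. Filled points passed at an adjusted p under 0.05, and among the members that is Ctsh alone.

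Inside each group, the 9 members shared an order of arrays in part. Wild type 2 was the lowest wild-type array for 9 of 9 members and knockout 3 the highest knockout array for 9 of 9. Of all genes, 13.0% had both features, and of the 1748 genes with a mean at least as high as the lowest member, 16.0%. On average the members lay 0.18 log2 units under their group mean in wild type 2, where Ctsk was farthest off at -0.36. In knockout 3 they lay 0.15 above it, from 0.03 for Ctsb to 0.21 for Ctsc. The pattern was noticed in these values, so it is a description and carries no test. It was also seen in 15 of 42 lysosomal hydrolases (35.7%), 10 of 26 macrophage markers and 8 of 12 endothelial markers. Of fibroblast markers 10 of 19 had it, as did 10 of 18 luminal and 7 of 13 basal epithelial markers. Of the other cathepsins and their relatives 4 of 18 had it, and of lysosomal membrane and proton pump genes 8 of 38. Fewer had it among lysosomal sorting genes (2 of 13), adipocyte markers (2 of 14), other cathepsin inhibitors (1 of 35) and skeletal muscle markers (0 of 18). With both arrays left out, a choice made after seeing the data, Ctsh differed by -0.97 (limma adjusted p = 0.0219), Ctsc by -0.72 (0.0565), Ctsk by 0.27 (0.439) and Cst3 by 0.08 (0.768). Ctsd then changed sign, to -0.05 (0.877).

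**Figure D3:**
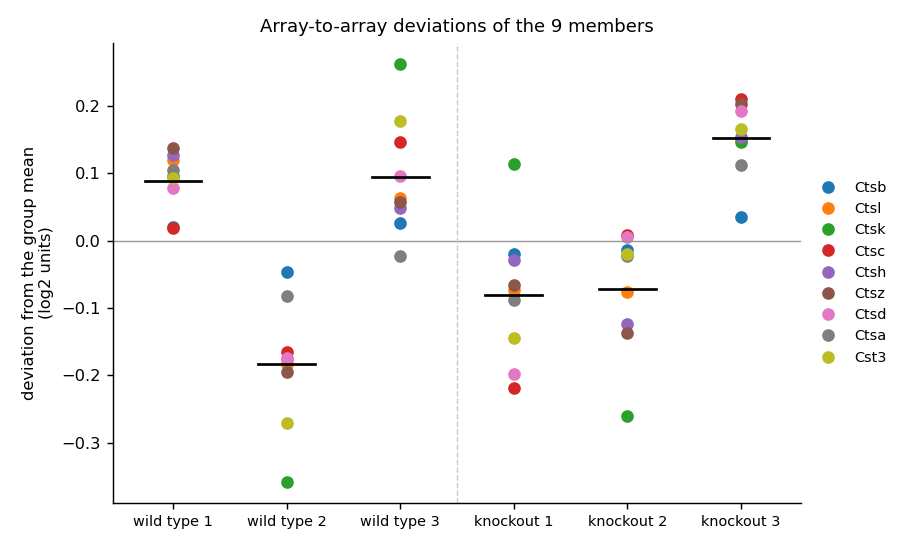
Deviation of each member from the mean of its own group on each array, in log2 units, with 1 coloured point per gene and a black line at the mean of the 9. Wild type 2 lies below zero for all 9 genes (mean -0.18) and knockout 3 above zero for all 9 (mean 0.15).

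Relatives outside the 9 members gave further calls. Among 18 measured relatives, the remaining cathepsins with legumain, napsin A and a catalytically inactive homologue, 4 fell and 1 rose (27.8%). Both group means of 10 of the 18 lay under 2.68, most of them cathepsins of the placenta, and these could hardly be read. Ctse, which encodes cathepsin E, an aspartic protease of epithelia and immune cells, had the largest change. Ctse read 7.47, 7.99 and 6.91 in wild type and 4.78, 5.91 and 4.79 in the knockout, and fell by 2.30 ± 0.37 (4.91-fold, limma adjusted p = 0.00748). This call held without any single array.

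Ctss encodes cathepsin S, which trims the invariant chain during antigen presentation and is the next protein-coding gene to Ctsk in the RefSeq order. Ctss read 9.26, 8.84 and 9.36 in wild type and 8.58, 8.63 and 8.30 in the knockout, and fell by 0.65 ± 0.17 (limma adjusted p = 0.0451). Its knockout values lay below wild type, where those of its neighbour Ctsk lay mostly above. Lgmn, which encodes legumain, an asparaginyl endopeptidase that processes cathepsins B, H and L, fell by 0.53 ± 0.11, from 9.31 to 8.78 (adjusted p = 0.0226). Ctsw, a cathepsin of natural killer and cytotoxic T cells, fell by 0.74 ± 0.14 (adjusted p = 0.0143), and Ctso rose by 0.53 ± 0.14 (adjusted p = 0.04998, just inside the threshold). Each of these calls was lost in some removals of 1 array. With all probe sets of each gene averaged, the call of Ctso was lost too. Ctss (adjusted p 0.0857 to 0.138) and Lgmn (0.0565 to 0.0756) lost theirs without any array except wild type 2, Ctso (0.0889 to 0.152) without any except knockout 3, and Ctsw without wild type 1 or 3 (0.0513 and 0.0518).

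Ctsh, Ctss and Lgmn were read beside markers of macrophages, the cells that hold much of the lysosomal protease in many tissues. Of 26 measured macrophage markers, 14 fell and 1 rose, with a mean level of 7.59 to 7.86 on the wild-type arrays and 7.10 to 7.20 on the knockout arrays. No marker of the list lay under 2.68 in both groups. The 2 with the largest differences that passed were Fcgr1 and Cd209g. Fcgr1, the high-affinity immunoglobulin G receptor, fell by 1.46 ± 0.20, and Cd209g, a C-type lectin, by 1.71 ± 0.28. The 1 rise was of Gpnmb, by 1.33 ± 0.24 (limma adjusted p = 0.0113). A further 11 did not pass, of which Mertk (0.22) and Lyve1 (0.06) read higher and the others lower. Falls numbered 6 when wild type 1 was left out, 8 for wild type 3, 9 for knockout 1 and 7 for knockout 2. The luminal epithelial markers fell too, as given above. Of the members, Ctsb (0.04), Ctsd (0.14), Ctsl (-0.18) and Ctsz (-0.05) did not pass, as given above. Of 42 lysosomal hydrolases and cofactors, 40 did not pass, and the list median was -0.0031. The part of either cell type in the fall of Ctsh was not tested.

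Other inhibitors of proteases were read beside Cst3. Of 35 measured cystatins, stefins, kininogens, serpins and testicans, 1 rose and 0 fell (2.86%), and the 1 rise, of Serpinb13, had both group means (1.63 and 2.23) under 2.68 and cannot be read as a level. Serpinb13 lost its call without knockout 2 (limma adjusted p = 0.0554). Both group means of 23 of the 35 lay under that level. Cstb, the intracellular inhibitor cystatin B, read 7.55, 7.57 and 7.73 in wild type and 7.66, 7.80 and 7.51 in the knockout. Its difference of 0.04 ± 0.13 did not pass (limma adjusted p = 0.876). The list has a median difference of 0.18, against 0.03 over all genes. It rests mostly on those genes under 2.68, so it is not read as a rise of inhibitors.

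The rest of the lysosome was read against the 12.2% of all genes called. Of 42 measured lysosomal hydrolases and cofactors, 1 rose and 1 fell (4.76%), with a median difference of -0.0031. Smpd1, acid sphingomyelinase, rose by 0.78 ± 0.12 (limma adjusted p = 0.00598). With the mean of its probe sets in place of the highest one, Smpd1 differed by 0.45 and did not pass (adjusted p = 0.225). Prcp, a lysosomal carboxypeptidase, fell by 0.55 ± 0.14 (adjusted p = 0.0447), a call lost without any array except knockout 3 (0.0867 to 0.138). Of 38 genes for lysosomal membrane proteins and the proton pump that acidifies the lumen, 4 fell and 1 rose (13.2%), with a median of 0.10. The pump subunit Atp6v1b1, known from acid-secreting epithelia, fell by 1.79 ± 0.12, from 7.88 to 6.09. The pump subunit Tcirg1 fell by 0.65 ± 0.16, Laptm5, a lysosomal protein of blood cells, by 0.64 ± 0.13, and the cystine transporter Ctns by 0.78 ± 0.13. The cholesterol transporter Npc1 rose by 0.78 ± 0.12, but the mean of its probe sets differed by 0.46 and did not pass (limma adjusted p = 0.0619), nor did Npc1 pass without wild type 2 and knockout 3 together (0.0531). Tcirg1 lost its call without any array except wild type 2 (adjusted p 0.0762 to 0.102), and Laptm5 without wild type 1 or 3 or knockout 2 or 3 (0.0530 to 0.0779).

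Over the 160 measured genes of all related lists, 5 rose and 12 fell (10.6%). Calls numbered 7 when either wild type 1 or wild type 3 was left out, 11 for knockout 1 and 6 for knockout 2. With arrays centred on their medians, 29 rose and 6 fell. Averaging all probe sets of each gene gave 1 rise and 12 falls.

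**Figure D4:**
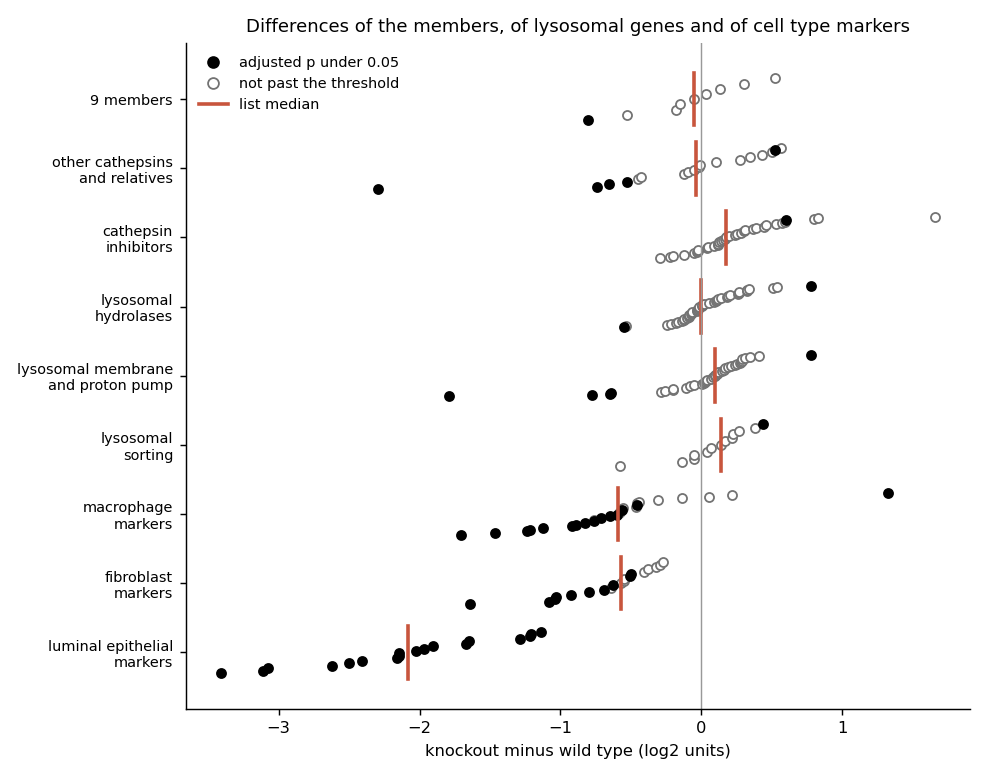
Knockout minus wild type in log2 units for every measured gene of the members, of the related lists and of 3 lists of cell type markers, with 1 point per gene. Filled points passed at an adjusted p under 0.05 and red lines are list medians, which lie at -0.05 for the members, -0.0031 for the lysosomal hydrolases, -0.59 for macrophage markers and -2.08 for luminal epithelial markers.

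Many lysosomal genes carry a palindromic site near their start for the factors TFEB, TFE3 and MITF, which raise lysosomal genes together. RefSeq promoters (GRCm38.p6, 250 bases before to 50 after the start) were at hand for 7 of the 9 members, with 8 starts in all, and not for Ctsb and Ctsh. The inner part of that site, TCACGTGA, was searched, which reads the same on both strands. It stood in 1 of the 2 Ctsa promoters and in the Ctsd promoter, against 0.974% of 32851 promoters. Among promoters of the listed lysosomal hydrolases and cofactors, it stood in 4 of 48. It contains the shorter E-box CACGTG, which stood in 7.15% of all promoters and in 10 of those 48. Among the members, the E-box stood also in the promoter of Ctsl. The stretches around the match before the start are shown, because Ctsa and Ctsd are the members in which the site was found, with the match in capitals.
Ctsa, chr2:164833720-164833772, plus strand: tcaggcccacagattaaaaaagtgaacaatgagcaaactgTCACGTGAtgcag
Ctsd, chr7:142387879-142387966, minus strand: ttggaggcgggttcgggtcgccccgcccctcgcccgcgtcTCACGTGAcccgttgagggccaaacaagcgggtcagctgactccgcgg
Counted from the start, with -1 the base before it, the match begins at -13 in Ctsa, which has a further one at 5, and at -99 in Ctsd. Ctsa and Ctsd differed by -0.15 and 0.14 and neither passed, as given above. A match describes the letters only.

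By Pearson correlation over the 6 arrays, the genes whose values ran closest to Ctsh were Bex3 (r = 0.998), a small adaptor protein, and Plxnb2 (r = 0.998), a semaphorin receptor. These arrays fall into 2 groups, so any gene with a like difference between them correlates highly. Bex3 fell by 1.28 ± 0.17 (limma adjusted p = 0.00393) and Plxnb2 by 1.35 ± 0.19 (adjusted p = 0.00417).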

How the data were processed

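The deposited values are log2 signals per probe set and array. Per the submitters' processing notes, the authors used RMA, which subtracts background, quantile-normalizes the arrays and summarises probes, and limma, with no version. The log base is not written in the table and was taken as 2 from RMA and the range. For chip definition and probe filters, the sources used here state nothing. The labels' protocols give 400 ng of total RNA per array.

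Of 41345 probe sets, 23521 carry 1 symbol in the platform annotation and 1814 several. The other 16010 are unnamed here. The probe set with the highest mean was kept per symbol. The fit of knockout against wild type ran over all 22180 genes in limma 3.58.1 (R 4.3.3), with lmFit and eBayes and no trend, and the steps were tested on simulated data. The number of arrays limits the precision. The labels call the samples biological replicates. Members and lists were chosen with earlier results of these data known. The text names every member, of each related list every gene that passed, of each marker list at most 2 that passed, and for a member that passed its 2 closest genes, with Mmp14, Ctss, Lgmn and Cstb. Beyond that rule, Gpnmb, Mertk, Lyve1 and Elane are named because they read higher in lists with falls. The 15 other settings cover filtering, variance model, array weights, scaling, probe set choice, the replicate number as a block, and each array left out.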

Additional observations from a re-analysis of the deposited data

How the results depend on the processing

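Ctsh and Mmp14 kept their direction and their call in all 15 settings tried. Members past the threshold numbered 2 with low genes left out, with an intensity trend, with a robust intensity trend, with array weights, with repeated quantile normalization (in each case Ctsh and Ctsc) and with arrays centred on their medians (Ctsh and Ctsk). They numbered 1 to 2 with 1 array left out. Ctsc passed at -0.53 without the low genes and under both trends, at -0.54 with array weights and at -0.57 with quantile normalization, and ran from -0.63 to -0.42 with 1 array left out (-0.72 without the pair of arrays named below). Centring gave Ctsk 0.71, which passed, and turned the sign of members that passed in neither case, to 0.033 for Ctsa, 0.0053 for Ctsl and 0.13 for Ctsz. Quantile normalization put Ctsb at -0.0021. With 1 array left out, Ctsz ran from -0.15 to 0.016, Ctsb from 0.012 to 0.048 and Ctsd from 0.039 to 0.23. Without wild type 2 and knockout 3 together, an alternative chosen after seeing the data, Ctsb was at -0.0057, Ctsd at -0.048 and Ctsz at -0.25, and 10 related genes passed.

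Genes past the threshold in the related lists, 17 in the fit reported, numbered 27 with either trend, 35 with centring and 6 to 14 with 1 array left out. Deviations of same-numbered arrays correlated at -0.03, -0.05 and -0.03 over all genes, so the numbers showed no broad shared effect. This cannot settle whether the arrays were paired, nor what holds for a single gene. With the replicate number as a block, 1 member passed (Ctsh, limma adjusted p = 0.0219), 11 related genes passed and 1923 of all genes. Under the block, Ctsk differed by 0.52 ± 0.13 and did not pass (limma adjusted p = 0.0670). With every probe set tested, 1 member passed. The cause of these shifts was not tested.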

Other observations

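Cathepsin C activates serine proteases of granules, and 11 such proteases and their relatives were measured. Of these, 2 fell and 0 rose (18.2%, against 12.2% of all genes called). Gzma, granzyme A of cytotoxic lymphocytes, fell by 1.13 ± 0.27 as read, with knockout 1 and 2 under 2.68, so the size may be a lower bound (limma adjusted p = 0.0337). Prtn3, proteinase 3 of neutrophils, fell by 0.83 ± 0.18 (adjusted p = 0.0246). Elane, also of neutrophils, went the other way, by 0.73 ± 0.21, without passing (limma adjusted p = 0.0604). In some other settings, both intensity trends among them, 1 gene of the list rose. Gzma lost its call without any array except knockout 3 (0.0685 to 0.0971), and Prtn3 without any except knockout 1 (0.0586 to 0.0751). Of 18 mast cell, eosinophil and neutrophil markers, 1 rose and 1 fell (11.1%), near the share of all genes. The mast cell receptor chain Fcer1a rose by 0.92 ± 0.17, from a wild-type level of 1.81 that lies under 2.68. Kit, which luminal progenitors also express, fell by 1.14 ± 0.15. Among 14 lymphocyte markers, Cd79b and Cd2 fell by 0.60 ± 0.12 and 0.48 ± 0.13 and 0 rose (14.3%), again near that share. Cd2 lost its call without any array except wild type 1 (limma adjusted p 0.0973 to 0.137), and Cd79b without wild type 1 or 3 or knockout 1 or 2 (0.0559 to 0.0676).

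Of 13 genes that tag and sort lysosomal enzymes, 0 fell and Sort1, the sorting receptor sortilin, rose by 0.44 ± 0.11 (limma adjusted p = 0.0443). That is 7.69% of the list. Sort1 failed whichever array was left out (limma adjusted p 0.0587 to 0.146). It was also not called with all probe sets of each gene averaged. Of the 4 MiT/TFE factors, 1 passed (25%). Tfec fell by 1.14 ± 0.31 (limma adjusted p = 0.0491), a call lost without wild type 1 or 2 or knockout 2 or 3 (0.124 to 0.154). Of 14 adipocyte markers, 6 rose and 0 fell, led by Aqp7 (1.36 ± 0.13) and Pck1 (1.30 ± 0.24). Rises among them numbered 3 without knockout 1, 2 without knockout 2 and 4 without any other single array. Of 12 endothelial markers, 3 rose and 0 fell (25%), among them Cldn5 (1.31 ± 0.23) and Kdr (0.85 ± 0.12). Rises there numbered 5 without knockout 1, 2 without any other single array and 10 with arrays centred on their medians. Of 13 basal epithelial markers, 10 fell and 0 rose. Krt14 fell by 3.15 ± 0.18 to a knockout level of 2.35, under 2.68, so the size may be a lower bound. None of 18 skeletal muscle markers passed (limma, 0 rose and 0 fell).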
